A study of Homo sapiens with 12 samples.

Results

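Tumour cells can hold back immune cells by displaying or releasing ligands of inhibitory receptors, or by changing the metabolites around them. Expression of 10 such genes was followed in pancreatic cancer cells given p63: LGALS9, CD274, PDCD1LG2, CD276, PVR, NECTIN2, NT5E, CD47, TNFRSF14 and IDO1. The genes were chosen by symbol, and no measured level enters the choice. All 10 were found among the 39099 genes to which the transcript values could be summed. Testing was limited to genes that reached 1 TPM in 2 or more of the 12 libraries, which left 14767 genes and 8 of the 10. PDCD1LG2 and IDO1 stayed below 1 TPM in every library and are described without a test.

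As background, PD-L1 and PD-L2, the products of CD274 and PDCD1LG2, bind PD-1 on T cells, and CD276 encodes B7-H3 of the same family. Galectin-9, the product of LGALS9, is a lectin that binds TIM-3 and other glycoproteins, while PVR and NECTIN2 bind the inhibitory receptor TIGIT and the activating receptor DNAM-1. TNFRSF14 encodes HVEM, which engages BTLA, and CD47 binds SIRP-alpha on macrophages and restrains phagocytosis. NT5E encodes the ectoenzyme CD73, which makes adenosine from AMP, and IDO1 is an interferon-inducible enzyme that breaks down tryptophan.

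RNA-seq libraries came from established human lines of pancreatic cancer, AsPC-1 and PANC-1 (ASPC1 and PANC1 in the labels). Each line was profiled as Mock, with TAp63 O/E and with deltaNp63 O/E, where O/E stands for overexpression. TP63 encodes p63, a transcription factor related to p53, and its upstream promoter gives TAp63 with a full activation domain while an internal promoter gives the shorter deltaNp63. There were 6 groups with 2 libraries each that the labels call biological replicates. P-values rest on the spread within such pairs, pooled over all 6 groups of both lines. Both constructs were compared with the same mock libraries of their line. The vector, the time after its delivery, and whether clones or pools of cells were used are not given in the sources used here. The labels name no immune cells in the cultures and no interferon treatment.

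TP63 was at 0.0245 to 1.10 TPM in the mock libraries and at 102 to 1187 TPM in the libraries of both constructs. In AsPC-1 it was at 102 and 170 TPM with TAp63 and at 245 and 350.4 TPM with deltaNp63. In PANC-1 it was at 324 and 342 TPM with TAp63 and at 815 and 1187 TPM with deltaNp63. TP63 was thus higher with deltaNp63 in both lines, so the form of p63 and its level cannot be told apart between the constructs. TPM is a transcript's length-normalised share of a library and keeps no read depth, so the depth behind a value is unknown. Replicates correlated with Pearson's r of 0.987 to 0.994 across tested genes. In bulk RNA, fewer cells of a type and less RNA per cell cannot be told apart. PTPRC, which marks white blood cells, was at most 0.0102 TPM, and EPCAM, an epithelial surface marker, was at 1256 to 1410 TPM in AsPC-1 and at 42.6 to 49.5 TPM in PANC-1. Of 10 markers of T and NK cells, 1 reached 1 TPM (LAG3, in PANC-1), 2 were listed at 0 throughout, and their sum was 0.096 to 0.416 TPM in AsPC-1 and 1.44 to 3.07 TPM in PANC-1. Of 9 macrophage and dendritic cell markers 2 reached 1 TPM, and CD68, a lysosomal protein, made up nearly all of their sum of 91.5 to 127 TPM in AsPC-1 and 256 to 290.1 TPM in PANC-1, while CD14 and CD163 stayed at or below 0.49 TPM. Of 7 fibroblast markers 2 reached 1 TPM, LUM at 177 to 288 TPM in AsPC-1 and COL1A1 at 80.8 to 111 TPM in PANC-1. Endothelial markers summed to at most 0.312 TPM. The summed level of 6 ductal epithelial markers was 7142 TPM in AsPC-1 deltaNp63 replicate 1 and 9545 to 10565 TPM in the other 5 AsPC-1 libraries. KRT8, KRT18 and KRT19 made that sum low, at 2034, 1682 and 1908 TPM there, each the lowest of the AsPC-1 libraries. The other markers were not low there. EPCAM, at 1384 TPM, and KRT7, at 10.5 TPM, lay within the range of the other AsPC-1 libraries, and CDH1 was highest, at 123 TPM.

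The 10 genes spanned nearly the whole range of expression in both lines. NT5E stood first in all 6 groups, between 203 and 389 TPM over the 12 libraries, and lay at or above the 98.2 percentile of all genes in each. NECTIN2, CD47, PVR and CD276 were also abundant, at 92.1 to 159 TPM, 63.6 to 171 TPM, 52.1 to 80.4 TPM and 32.8 to 61.9 TPM. TNFRSF14 ran from 13.6 to 38.3 TPM and LGALS9 from 8.14 to 64.7 TPM. CD274 was far below these, at 0.0919 to 3.54 TPM. IDO1 did not exceed 0.314 TPM and PDCD1LG2 did not exceed 0.135 TPM. TPM is scaled to transcript length, so these levels can be set beside each other as sums over all rows of a gene. Rows annotated as protein coding held 0.71% to 26.8% of LGALS9 and 38.3% to 57.4% of CD276, but 100% of NT5E. In mock AsPC-1 the order of mean TPM was NT5E, NECTIN2, CD47, PVR, LGALS9, CD276 and TNFRSF14, with CD47 and PVR overlapping between replicates. In mock PANC-1 it was NT5E, CD47, NECTIN2, CD276, PVR, TNFRSF14 and LGALS9, and there CD276 overlapped PVR and TNFRSF14 overlapped LGALS9. LGALS9 held the fifth place in mock AsPC-1 and the seventh with either construct.

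**Figure D1:**
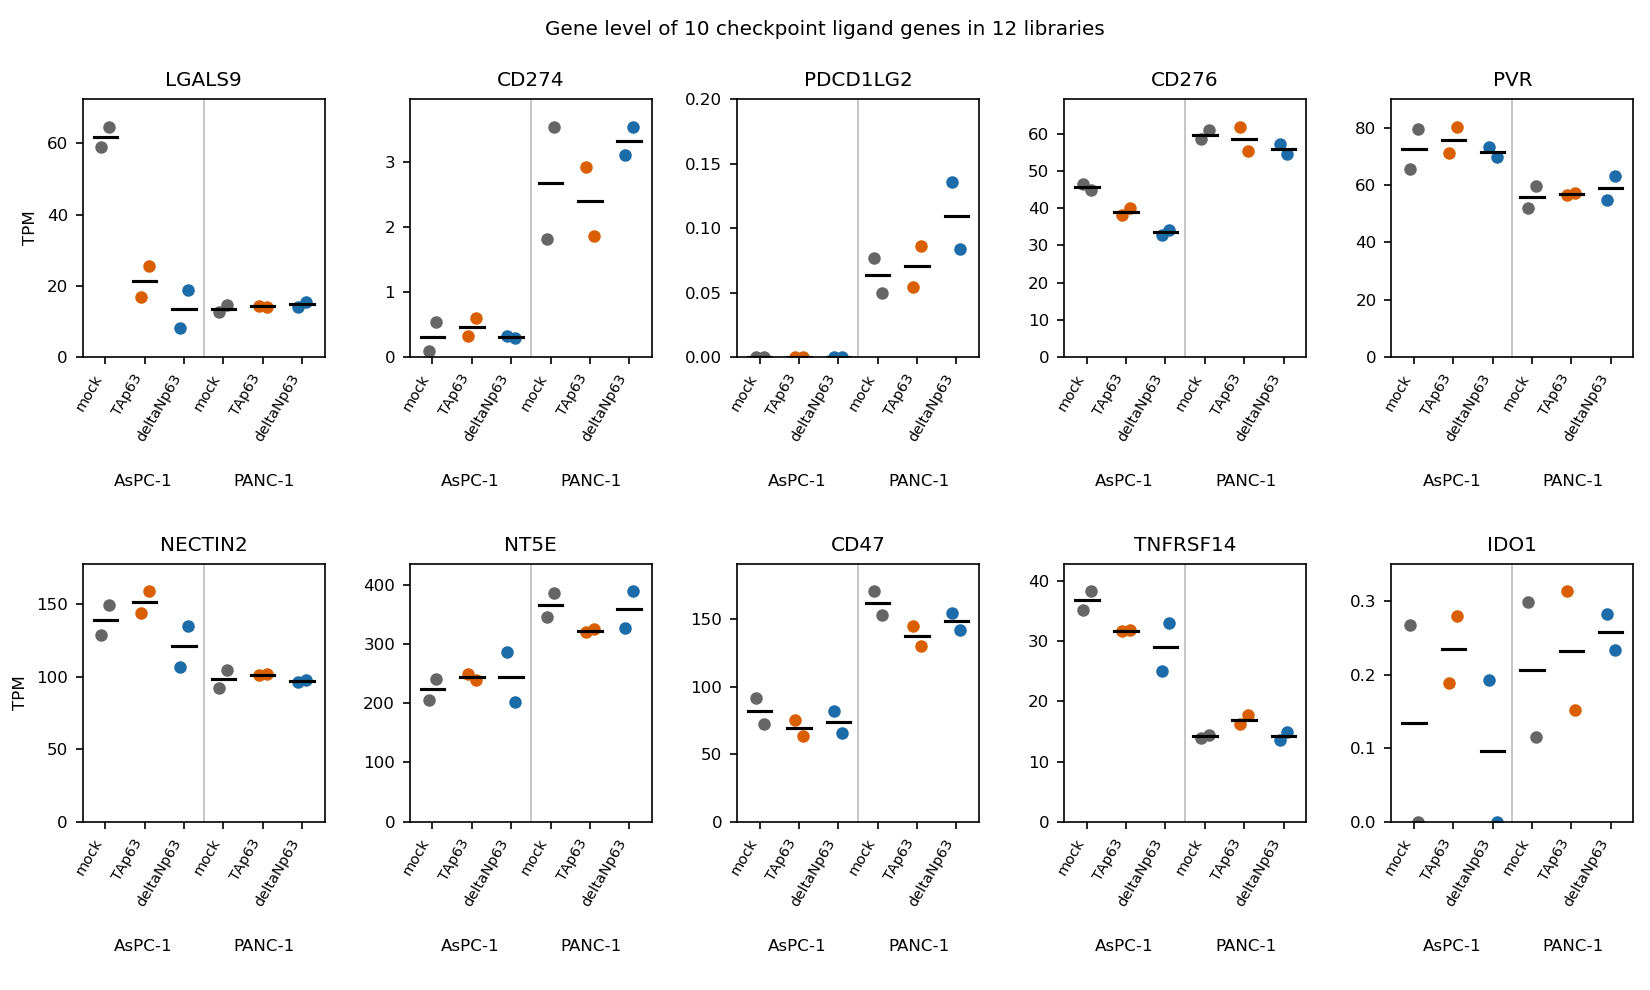
TPM of each gene (y axis, linear, own scale per panel) in the 6 groups of cell line and construct (x axis); points are the 2 libraries of a group and bars their mean. LGALS9 has a mean of 61.8 TPM in AsPC-1 mock and of 21.3 and 13.4 TPM with TAp63 and deltaNp63, while most other panels differ mainly between the cell lines.

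The cell lines were compared first in their mock state, which shows the baseline on which the constructs acted. All 7 genes that reached 1 TPM in both lines differed between PANC-1 and AsPC-1 at a limma adjusted p under 0.05 (Benjamini-Hochberg over 14767 genes), 3 higher and 4 lower in PANC-1. CD274 was tested only because it reached 1 TPM in PANC-1, so it had to differ, and its difference is given as a description. Such differences were common: 72.5% of all tested genes passed, 44.6% higher and 27.9% lower, so the count says little about checkpoint ligands. The median log2 difference of all tested genes was 0.24, and median centring of the libraries brought it to 0.07. Differences below are on the log2(TPM + 1) scale, which understates the change of low genes, and all 7 kept their direction and their call under quantile normalization and median centring.

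Higher in PANC-1 were CD274, CD47, NT5E and CD276. CD274 was at 0.0919 and 0.532 TPM in AsPC-1 mock and at 1.81 and 3.54 TPM in PANC-1 mock. The AsPC-1 values lay below all PANC-1 values, with a log2 difference of 1.46 (SE 0.256). CD47 was at 91.9 and 72.1 TPM in AsPC-1 mock and at 170.9 and 153 TPM in PANC-1 mock, a log2 difference of 0.98 (SE 0.146, limma adjusted p 0.00015). NT5E was at 206 and 241 TPM against 346 and 386 TPM, a log2 difference of 0.71 (SE 0.152, limma adjusted p 0.00177). For both genes the lines did not overlap in any of the 12 libraries. CD276 was closer, at 46.5 and 44.9 TPM against 58.5 and 60.9 TPM, a log2 difference of 0.38 (SE 0.0842, limma adjusted p 0.00235). It was the one gene whose direction turned with the annotation: summed over protein-coding transcripts alone the log2 difference was -0.039 (limma adjusted p 0.736).

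Lower in PANC-1 were LGALS9, TNFRSF14, NECTIN2 and PVR. LGALS9 was at 59.0 and 64.7 TPM in AsPC-1 mock and at 12.6 and 14.6 TPM in PANC-1 mock, a log2 difference of -2.11 (SE 0.299, limma adjusted p 0.000108). It was the largest difference on the log2(TPM + 1) scale, which compresses that of CD274, with mean levels of 0.312 and 2.67 TPM. Over protein-coding transcripts alone the LGALS9 difference was -0.90 and did not pass (limma adjusted p 0.173). TNFRSF14 was at 35.2 and 38.3 TPM against 13.9 and 14.4 TPM, a log2 difference of -1.32 (SE 0.127, limma adjusted p 6.35e-06). Every AsPC-1 library stood above every PANC-1 library for TNFRSF14. NECTIN2 was at 129 and 149.8 TPM against 92.1 and 104 TPM, with a log2 difference of -0.50 (SE 0.122, limma adjusted p 0.00419). PVR was at 65.6 and 79.7 TPM against 52.1 and 59.6 TPM, with a log2 difference of -0.37 (SE 0.119, limma adjusted p 0.0173). The PVR call was lost without AsPC-1 mock replicate 2 (limma adjusted p 0.151) or PANC-1 mock replicate 1 (limma adjusted p 0.127). Both TIGIT ligands were thus higher in AsPC-1 and stayed above 52 TPM in PANC-1.

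**Figure D2:**
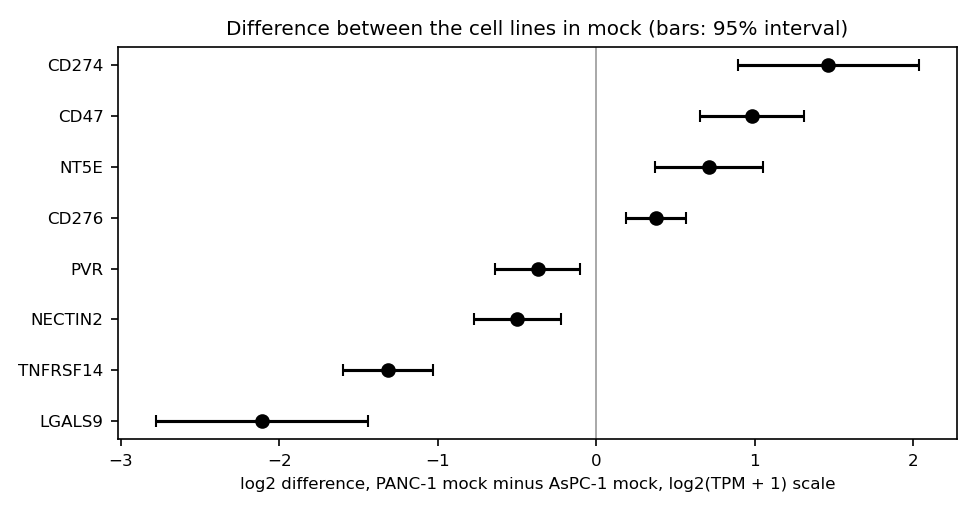
Log2 difference between PANC-1 mock and AsPC-1 mock (x axis, log2(TPM + 1) scale) for the 8 tested genes (y axis); points are limma estimates and bars 95% intervals. The genes run from CD274 at 1.46 to LGALS9 at -2.11, with no interval crossing 0. CD274 was tested only because it reached 1 TPM in PANC-1, so it had to differ and its interval is a description.

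The lines also differed in the transcript make-up of NT5E. The 9-exon transcript NT5E-201 was at 139 and 149 TPM in AsPC-1 mock and at 294 and 320.3 TPM in PANC-1 mock, higher by 1.09 on the log2 scale (limma adjusted p 0.00142 over 51675 transcripts). NT5E-202, a 3-exon transcript with 792 coding bases against 1722 in NT5E-201, went the other way by a log2 difference of -1.52 (limma adjusted p 0.00138). It was at 51.4 to 79.4 TPM in the 6 AsPC-1 libraries and at 16.7 to 27.6 TPM in the 6 PANC-1 libraries. The short transcript thus made up 22.9% to 33.2% of NT5E in AsPC-1 and 4.83% to 8.48% in PANC-1, with no overlap between the lines. Of the 51675 transcripts, 23095 passed between the mock lines, so such calls were common. How reads shared between the NT5E transcripts were divided is not given in the sources used here. The 11-exon transcript CD47-202 carried most of CD47 in both lines, as NT5E-201 did for NT5E in mock. The CD47-202 share was 70.6% to 76.4% of the gene in AsPC-1 and 80.0% to 81.8% in PANC-1, again with no overlap.

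LGALS9 was the gene that moved most with p63, and it did so in AsPC-1. It was at 59.0 and 64.7 TPM with mock, 16.98 and 25.6 TPM with TAp63, and 8.14 and 18.7 TPM with deltaNp63. No library of either construct reached the mock libraries, and the constructs overlapped each other. With deltaNp63 the log2 fold change was -2.23 (SE 0.299, 95% interval -2.89 to -1.56, limma adjusted p 0.00483). With TAp63 it was -1.52 (SE 0.299, 95% interval -2.19 to -0.85) and did not pass (limma adjusted p 0.0665). LGALS9 did not differ between TAp63 and deltaNp63 beyond the threshold (log2 difference 0.70, 95% interval 0.04 to 1.37, limma adjusted p 0.628). That difference was 1.26 without AsPC-1 deltaNp63 replicate 2, which left only the deltaNp63 library with the lower KRT8, KRT18 and KRT19.

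The deltaNp63 call on LGALS9 held in all 12 fits that left out 1 library, with log2 fold changes from -2.78 to -1.67 and limma adjusted p from 0.000204 to 0.0464. Without AsPC-1 deltaNp63 replicate 1, the library with the lower KRT8, KRT18 and KRT19, the log2 fold change was -1.67. CD68 was at 115 and 126 TPM with mock, 96.8 and 106 TPM with TAp63 and 91.9 and 90.8 TPM with deltaNp63 in AsPC-1, and its part in the LGALS9 result was not tested. The LGALS9 call was lost when the 6 AsPC-1 libraries were fitted alone (limma adjusted p 0.235). The TAp63 value passed when only genes with a mean of at least 5 TPM were tested (limma adjusted p 0.0274) and without either AsPC-1 deltaNp63 library (limma adjusted p 0.00283 and 0.00288). All tested genes had a median log2 fold change of -0.12 with deltaNp63 in AsPC-1. Quantile normalization brought that median to 0 and left LGALS9 at -1.99 (limma adjusted p 0.00521), and median centring, which moved it to 0.09, left LGALS9 at -2.02.

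In PANC-1 LGALS9 did not pass with either construct, and its libraries overlapped those of mock. It was at 12.6 and 14.6 TPM with mock, 14.4 and 13.997 TPM with TAp63 and 14.2 and 15.5 TPM with deltaNp63. The log2 fold changes were 0.06 with TAp63 (95% interval -0.60 to 0.73) and 0.12 with deltaNp63 (95% interval -0.55 to 0.79). The effect of deltaNp63 differed between the lines by 2.35 on the log2 scale (SE 0.423, limma adjusted p 0.0475), close to the threshold. It did not pass in 6 other ways of processing, among them the fit without a filter on low values (limma adjusted p 0.146). Nor did it pass without any 1 of the AsPC-1 mock libraries or the PANC-1 libraries (limma adjusted p 0.109 to 0.231). For TAp63 the difference between the lines was 1.58 (SE 0.423) and did not pass (limma adjusted p 0.317), except without an AsPC-1 deltaNp63 library (limma adjusted p 0.0406 and 0.0409). The mean of LGALS9 in AsPC-1 with deltaNp63, 13.4 ± 7.48 TPM (SD, n = 2), was close to the 13.6 ± 1.38 TPM of PANC-1 mock (SD, n = 2).

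The transcript rows that make up LGALS9 are shown next, because most of its signal did not sit on transcripts annotated as protein coding. LGALS9 lies on the plus strand of chromosome 17 at 27629798 to 27649560 (hg38, GENCODE v44) and had 15 transcript rows. Another annotated protein-coding gene without a symbol overlaps it on the same strand. Protein-coding rows held 5.27% to 26.8% of LGALS9 in the AsPC-1 libraries and 0.71% to 16.6% in the PANC-1 libraries. The largest row was LGALS9-205, annotated as a target of nonsense-mediated decay, the pathway that degrades messages with an early stop codon. It held 27.8% to 45.1% of the gene. LGALS9-212, with the same annotation, and LGALS9-211, which retains an intron, followed. LGALS9-205 and LGALS9-212 join exon 3 at a splice acceptor 71 bases downstream of the one used in LGALS9-203, a full-length coding transcript. The exon is shown in both forms, at chr17:27640572-27640773 for LGALS9-203 and up to the stop at chr17:27640643-27640739 for LGALS9-205 (plus strand, hg38). Capitals mark the 71 bases left out in the first and the stop codon met in the second.
LGALS9-203: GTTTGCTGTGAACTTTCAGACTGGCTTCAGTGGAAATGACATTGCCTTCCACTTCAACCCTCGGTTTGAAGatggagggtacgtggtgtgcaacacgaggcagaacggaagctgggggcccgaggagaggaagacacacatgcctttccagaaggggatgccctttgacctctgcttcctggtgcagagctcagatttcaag
LGALS9-205: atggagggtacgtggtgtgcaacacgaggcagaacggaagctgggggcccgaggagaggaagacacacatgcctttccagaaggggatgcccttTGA

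Leaving out 71 bases shifts the reading frame, and the coding part of LGALS9-205 ends after 228 bases, stop included, against 1068 bases in LGALS9-203. The 2 rows with the downstream acceptor summed to 31.9 and 34.9 TPM in AsPC-1 mock, 9.53 and 15.6 TPM with TAp63 and 4.99 and 9.37 TPM with deltaNp63. The 7 rows with the upstream acceptor summed to 25.9 and 28.2 TPM, 6.98 and 9.55 TPM, and 3.00 and 9.02 TPM in the same groups. Both sums were thus lower in every construct library than in mock, and neither was tested as a sum. Most of the upstream sum in AsPC-1 mock was not coding: LGALS9-211 was at 12.6 and 12.6 TPM. LGALS9-204, with no defined coding part, was at 9.05 and 11.4 TPM, and the full-length LGALS9-203 at 0.668 and 0.649 TPM. The downstream acceptor held 50.1% to 61.3% of LGALS9 in AsPC-1 and 46.1% to 55.0% in PANC-1, so its share overlapped between lines and between constructs.

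Tested as single rows, LGALS9-205 fell with deltaNp63 in AsPC-1 by 2.00 on the log2 scale (limma adjusted p 0.0163 over 51675 rows). LGALS9-212 (-1.96, limma adjusted p 0.0878) and LGALS9-211 (-2.21, limma adjusted p 0.278) did not pass. Over protein-coding rows alone, a sum chosen after the values were seen, the log2 fold change of LGALS9 was -1.18 with deltaNp63 (limma adjusted p 0.172) and -0.07 with TAp63 (limma adjusted p 0.993). The TAp63 value turned on 1 row in 1 library: LGALS9-208 was at 5.44 TPM in AsPC-1 TAp63 replicate 2 and at most 0.688 TPM in the other AsPC-1 libraries. Without that row the protein-coding sum was 2.42 and 3.61 TPM with mock, 1.08 and 1.40 TPM with TAp63 and 0.722 and 0.828 TPM with deltaNp63, so all construct libraries lay below mock. This sum was not tested. The deltaNp63 call on LGALS9 was lost when rows not annotated as protein coding were left out. How reads shared between the rows were divided is not given in the sources used here, and single rows swung between replicates: LGALS9-208 held up to 21.3% of the gene in one library and 0 in others. The near-identical copies LGALS9B and LGALS9C were at most 0.0369 and 0.314 TPM.

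**Figure D3:**
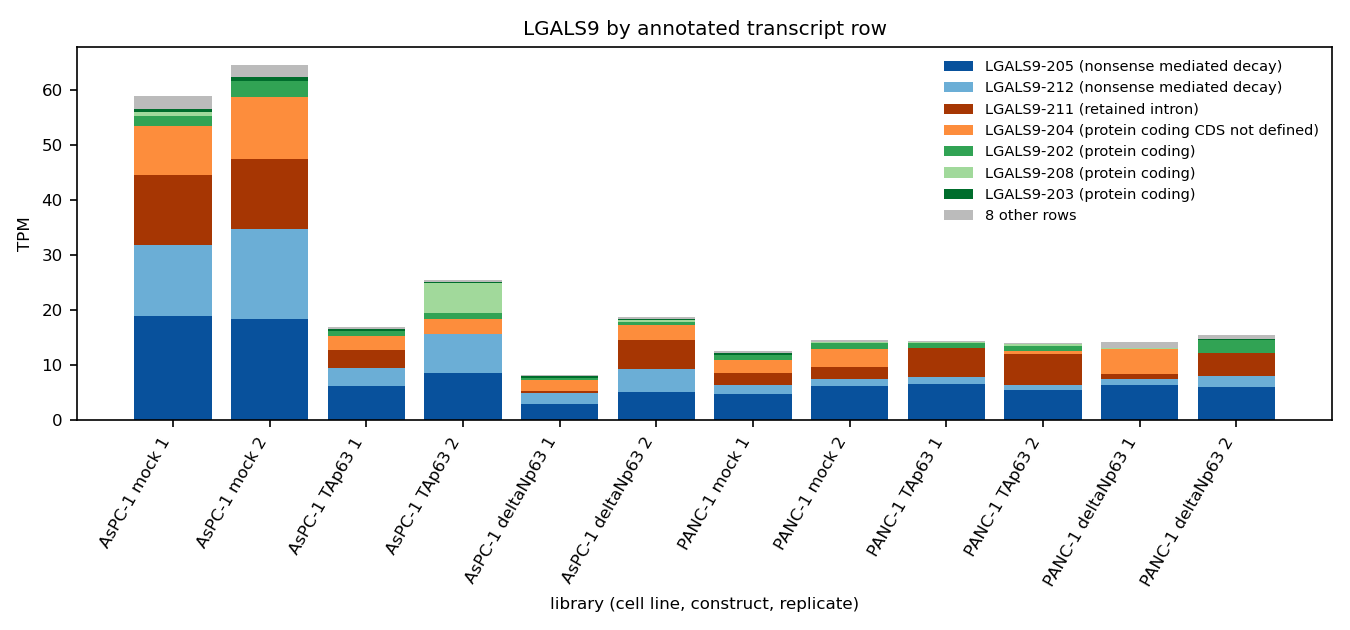
TPM of LGALS9 (y axis, linear) in each of the 12 libraries (x axis), stacked by annotated transcript row; blue rows use the downstream exon 3 acceptor, brown and orange rows are a retained intron and an undefined coding part, and green rows are protein coding. LGALS9-205, LGALS9-212, LGALS9-211 and LGALS9-204 are each lower in all 4 AsPC-1 libraries with a construct than in mock, and the blue rows hold 46.1% to 61.3% of each bar.

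CD276, on the plus strand of chromosome 15 at 73683966 to 73714514 (hg38), was the other gene to pass with a construct, again with deltaNp63 in AsPC-1. It was at 46.5 and 44.9 TPM with mock, 38.0 and 40.0 TPM with TAp63 and 32.8 and 34.2 TPM with deltaNp63. The 3 groups did not overlap. The log2 fold change was -0.44 with deltaNp63 (SE 0.0842, 95% interval -0.63 to -0.25, limma adjusted p 0.0271) and -0.22 with TAp63 (limma adjusted p 0.253). In all, 2 of the 8 tested genes passed with deltaNp63 in AsPC-1, both lower, against 7.14% of all genes, 6.51% lower. None of the 8 passed with TAp63, against 0.637% of all genes, though 2 had an unadjusted p under 0.05. None passed between the constructs, against 0.0203%, with 3 at an unadjusted p under 0.05.

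The CD276 call was less steady than that of LGALS9. It held in 5 of 12 fits that left out 1 library. Limma adjusted p was 0.146 without AsPC-1 mock replicate 1, 0.0884 without AsPC-1 mock replicate 2 and 0.114 without AsPC-1 deltaNp63 replicate 1. Without either PANC-1 mock or either PANC-1 TAp63 library, the fold change stayed and limma adjusted p lay between 0.0518 and 0.0555. Relative to a centred library it was also smaller, at -0.30 with quantile normalization (limma adjusted p 0.0942) and -0.23 with median centring (limma adjusted p 0.126). Fitted over protein-coding transcripts it kept its size and its call (-0.42, limma adjusted p 0.0308). CD276-207, a retained-intron row with no coding part, and the coding row CD276-202 carried most of the gene, at 29.8% to 42.7% and 26.9% to 42.8%. In PANC-1, CD276 was at 58.5 and 60.9 TPM with mock and at 54.6 to 61.9 TPM with the constructs. The difference between the lines in the deltaNp63 effect was 0.34 and did not pass (limma adjusted p 0.236).

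**Figure D4:**
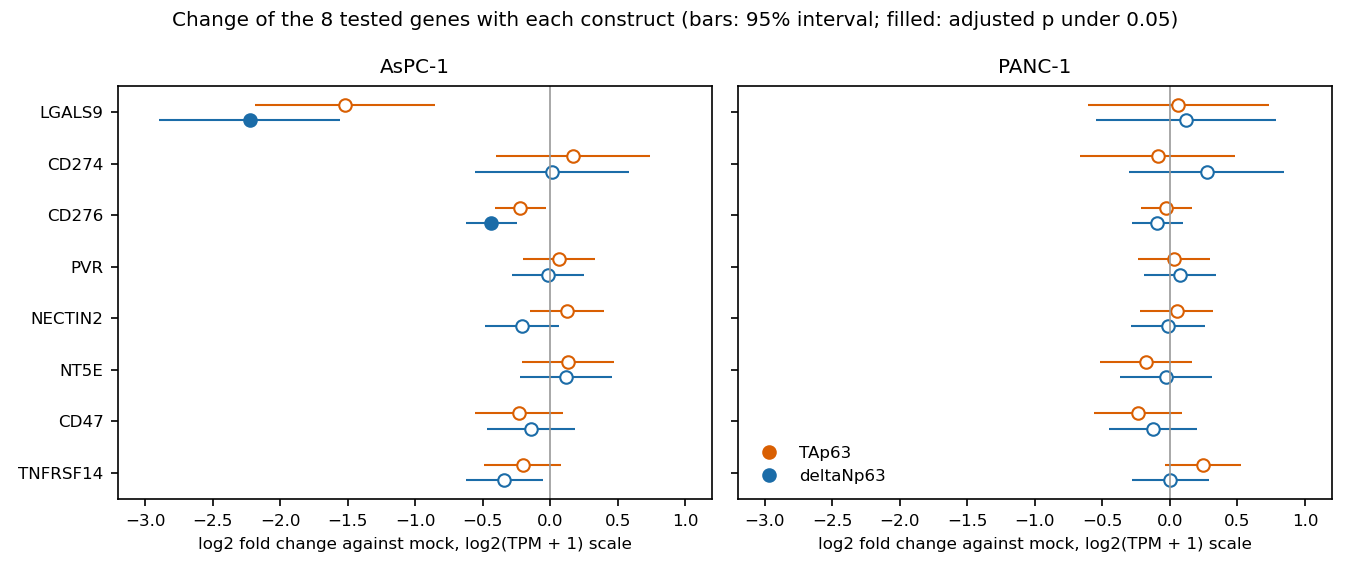
Log2 fold change against mock (x axis, log2(TPM + 1) scale) of the 8 tested genes (y axis) in AsPC-1 (left) and PANC-1 (right); orange points are TAp63 and blue points deltaNp63, bars are 95% intervals, and filled points passed the threshold. Only LGALS9 at -2.23 and CD276 at -0.44 are filled, both with deltaNp63 in AsPC-1, and in PANC-1 all 16 intervals cross 0.

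The ligands of PD-1 stayed low throughout. CD274 in AsPC-1 was at 0.0919 and 0.532 TPM with mock, 0.316 and 0.605 TPM with TAp63 and 0.316 and 0.295 TPM with deltaNp63. In PANC-1 it was at 1.81 and 3.54 TPM, 2.92 and 1.86 TPM, and 3.10 and 3.53 TPM. Construct and mock libraries overlapped in both lines. Its log2 fold changes lay between -0.09 and 0.27, and the highest upper bound of a 95% interval was 0.85, for deltaNp63 in PANC-1. The lowest bound was -0.66, for TAp63 in PANC-1. At these levels the log2(TPM + 1) scale is compressed. The intervals in AsPC-1, and that of deltaNp63 in PANC-1, do not exclude that CD274 doubled. CD274 lies on the plus strand of chromosome 9 at 5450503 to 5470566 and PDCD1LG2 follows at 5510531 to 5571282 (hg38). PDCD1LG2 was listed at 0 in all 6 AsPC-1 libraries. In PANC-1 it was at 0.077 and 0.0499 TPM with mock, 0.0543 and 0.0862 TPM with TAp63, and 0.135 and 0.0835 TPM with deltaNp63, values too low for a test.

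The promoter of CD274 is shown because interferon acts on this gene through sites near its start. RefSeq promoter windows (GRCh38.p14) were matched for 8 of the 10 genes. Both strands of the 250 bases before each start were searched for GAAA, any 2 bases and GAAA again, the core of the interferon-stimulated response element, and for TTCNNNGAA, the gamma-activated site. CD274 was the one gene of the 8 to hold either. Its window at chr9:5450292-5450502 (plus strand) is printed with the matches in capitals, 2 overlapping matches of the first motif in the first run and 1 of the second motif in the second.
CD274 promoter: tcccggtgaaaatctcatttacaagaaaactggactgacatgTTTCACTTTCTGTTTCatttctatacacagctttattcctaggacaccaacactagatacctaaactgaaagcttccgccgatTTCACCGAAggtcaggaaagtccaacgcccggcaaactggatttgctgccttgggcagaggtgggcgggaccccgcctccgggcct

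Distances are counted from the RefSeq start at position 5450542: the matches of the first motif begin 208 and 202 bases before it, and that of the second 125 bases before it. The search covered all 250 bases before that start, and 211 of them are printed, up to the base before the GENCODE start at 5450503. Of 35116 promoter windows of the same length, 3.02% held the first motif and 6.57% the second. A match describes letters and not binding, and CD274 did not pass in any contrast against mock.

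The TIGIT ligands did not pass with either construct in either line. PVR in AsPC-1 was at 65.6 and 79.7 TPM with mock, 71.1 and 80.4 TPM with TAp63 and 73.3 and 69.7 TPM with deltaNp63. In PANC-1 it was at 52.1 and 59.6 TPM, 56.5 and 57.2 TPM, and 54.7 and 63.1 TPM. The groups overlapped within each line, and its log2 fold changes against mock lay between -0.02 and 0.08, with 95% intervals inside -0.28 to 0.34. NECTIN2 in AsPC-1 was at 129 and 149.8 TPM with mock, 144 and 159 TPM with TAp63 and 107 and 135 TPM with deltaNp63. Its log2 difference between TAp63 and deltaNp63 was 0.33 (95% interval 0.06 to 0.60, limma adjusted p 0.628), and neither construct passed against mock. Leaving out AsPC-1 deltaNp63 replicate 2 kept only the deltaNp63 library with the lower KRT8, KRT18 and KRT19. The NECTIN2 log2 values were then -0.38 against mock and 0.50 between the constructs. In PANC-1 NECTIN2 was at 92.1 and 104 TPM, 101 and 101.7 TPM, and 96.0 and 97.9 TPM, with both construct groups inside the range of mock. PVR and NECTIN2 lie near each other on chromosome 19, at 44643798 to 44666162 and 44846175 to 44889223 (hg38). PVR overlaps CEACAM16-AS1 and CEACAM19 in the annotation, and whether strand was used in counting is not given in the sources used here.

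NT5E and CD47, the most abundant of the 10 genes in PANC-1, did not pass with either construct. NT5E lies on chromosome 6 at 85449584 to 85495791 (plus strand) and CD47 on chromosome 3 at 108043091 to 108091862 (minus strand). NT5E in AsPC-1 was at 206 and 241 TPM with mock, 249 and 239 TPM with TAp63 and 287 and 203 TPM with deltaNp63. In PANC-1 it was at 346 and 386 TPM, 320.2 and 325 TPM, and 328 and 389 TPM. The 2 deltaNp63 libraries of AsPC-1 lay on either side of all other AsPC-1 libraries, and no NT5E change passed (log2 fold changes -0.18 to 0.13). CD47 in AsPC-1 was at 91.9 and 72.1 TPM with mock, 75.6 and 63.6 TPM with TAp63 and 82.0 and 66.1 TPM with deltaNp63. In PANC-1 it was at 170.9 and 153 TPM with mock, 145 and 130.4 TPM with TAp63 and 155 and 142 TPM with deltaNp63. The PANC-1 TAp63 libraries of CD47 lay below both mock libraries, and the log2 fold change was -0.23 (95% interval -0.56 to 0.09, limma adjusted p 1). None of the 4 CD47 comparisons with mock passed.

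TNFRSF14 lies on chromosome 1 at 2555639 to 2565382 (plus strand, hg38) and overlaps its antisense gene TNFRSF14-AS1. Reads in the overlap can be told apart only by strand. The kit was stranded, but whether strand was used in counting is not given in the sources used here. TNFRSF14 in AsPC-1 was at 35.2 and 38.3 TPM with mock, 31.7 and 31.9 TPM with TAp63 and 25.05 and 33.1 TPM with deltaNp63. All 4 construct libraries lay below both mock libraries, with log2 fold changes of -0.20 (limma adjusted p 0.488) and -0.34 (95% interval -0.63 to -0.06, limma adjusted p 0.111). Neither passed in the full set. The deltaNp63 value was -0.53 without AsPC-1 deltaNp63 replicate 2, which left only the deltaNp63 library with the lower KRT8, KRT18 and KRT19. In PANC-1 it was at 13.9 and 14.4 TPM with mock, 16.2 and 17.8 TPM with TAp63 and 13.6 and 14.9 TPM with deltaNp63. The PANC-1 TAp63 libraries of TNFRSF14 lay above mock, and the log2 fold change was 0.24 (95% interval -0.04 to 0.53, limma adjusted p 1). IDO1 was listed at 0 in 1 AsPC-1 mock and 1 AsPC-1 deltaNp63 library and lay between 0.115 and 0.314 TPM in the other 10.

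None of the 8 tested genes passed in PANC-1 with TAp63, with deltaNp63 or between the constructs, and none had an unadjusted p under 0.05 there. The background was low as well, at 0.00677%, 0.0406% and 0.0271% of all tested genes. The 1 gene behind the TAp63 share was TP63 itself, which was also among the genes that passed with deltaNp63. Of the differences between the lines, 1 of 8 passed for deltaNp63 (LGALS9), against 0.582% of all genes, and 0 of 8 for TAp63, against 0.0745%, each with 2 genes at an unadjusted p under 0.05. The median log2 fold change of the 8 genes was -0.18 with deltaNp63 and -0.07 with TAp63 in AsPC-1, beside -0.12 and -0.08 over all tested genes.

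The genes whose log2 levels ran most like LGALS9 over all 12 libraries were EPSTI1, PKD1P6, NLRC5, TMEM63A and PIK3AP1, with Pearson's r of 0.964 to 0.951. EPSTI1 was at 44.8 and 44.6 TPM in AsPC-1 mock, 19.9 and 23.2 TPM with TAp63, 15.3 and 16.6 TPM with deltaNp63 and 16.3 to 19.5 TPM in PANC-1. Those most like CD276 were COQ8A, APOL1, MAST2, IFI6 and DTX3L, with r of 0.995 to 0.984. IFI6 was at 1243 and 1195 TPM in AsPC-1 mock, 406 and 502 TPM with TAp63, 261 and 344 TPM with deltaNp63 and 3167 to 3325 TPM in PANC-1. Within the 6 AsPC-1 libraries the closest to LGALS9 were CBX1, RUSC1, ZNF579, TCAF1 and SCO2, and the closest to CD276 were AP2S1, USP47, TPR, NFIC and ZBTB39. LGALS9 and CD276 had r of 0.948 with each other there. These genes were picked as the extremes among 14767 over few libraries that share their groups, so r is given as a description with no test.

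The other genes of these pathways were read from 9 lists with 136 genes, of which 98 could be tested. With deltaNp63 in AsPC-1, 14 of the 98 fell and none rose, a share of 14.3% beside 6.51% of all genes. TNFSF10, the death ligand TRAIL, was at 6.05 and 5.64 TPM with mock and 1.05 and 1.54 TPM with deltaNp63 (-1.59 in log2, SE 0.152, limma adjusted p 0.000489). LGALS3BP, a secreted glycoprotein that binds galectins, was at 377 and 382 TPM with mock and 132 and 213 TPM with deltaNp63, and fell by 1.17 on the log2 scale (limma adjusted p 0.0124). BTN3A1, a butyrophilin sensed by gamma-delta T cells, was low in AsPC-1, at 4.31 and 3.55 TPM with mock, and fell by 1.15 (limma adjusted p 0.00769). By list, 3 of 10 tested relatives of the B7 family, 2 of 22 regulators of PD-L1, 3 of 14 other ligands of inhibitory receptors, 2 of 6 phagocytosis signals and 1 each of the galectins, the adenosine pathway, tryptophan breakdown and the TNF family fell. None of 5 tested nectin relatives passed.

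The count of listed genes depended on the fit. It was 11 without either AsPC-1 TAp63 library, 6 without any 1 of the PANC-1 mock or TAp63 libraries, 3 without either AsPC-1 mock library, 5 without AsPC-1 deltaNp63 replicate 1, and 24 lower with 6 higher without AsPC-1 deltaNp63 replicate 2. The 14 genes kept their sign in all 12 of those fits. With quantile normalization 7 fell and 1 rose, with median centring 6 fell and 2 rose, and with the 6 AsPC-1 libraries alone 0 passed. Among all genes the calls were 94 higher and 961 lower as deposited, 51 higher and 148 lower after quantile normalization, and 249 higher and 170 lower after median centring. The median log2 fold change of the 98 listed genes was -0.11, close to the -0.12 of all genes.

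With TAp63 in AsPC-1, 3 of the 98 fell and none rose, beside 0.609% of all genes lower. Among them were TNFSF10 (-1.27, limma adjusted p 0.004) and B2M, the light chain of MHC class I (-0.54, limma adjusted p 0.0415). B2M was at 2925 and 2538 TPM with mock and 1947 and 1798 TPM with TAp63, and the B2M call was lost in 10 of 12 fits that left out 1 library, for example without AsPC-1 mock replicate 1 (limma adjusted p 0.276). The count of 3 was 9 without either AsPC-1 deltaNp63 library, 1 without AsPC-1 mock replicate 1 or AsPC-1 TAp63 replicate 1, and 0 with the 6 AsPC-1 libraries alone. In PANC-1 none of the 98 passed with either construct. The deltaNp63 effect differed between the lines for 3 of 98, all higher in PANC-1 relative to AsPC-1. Among them were TNFSF10 (1.61, limma adjusted p 0.00876) and IRF1, a transcription factor induced by interferon (1.07, limma adjusted p 0.017). The share of all genes higher in this way was 0.562%, and the count of 3 was 16 higher and 2 lower without AsPC-1 deltaNp63 replicate 2.

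**Figure D5:**
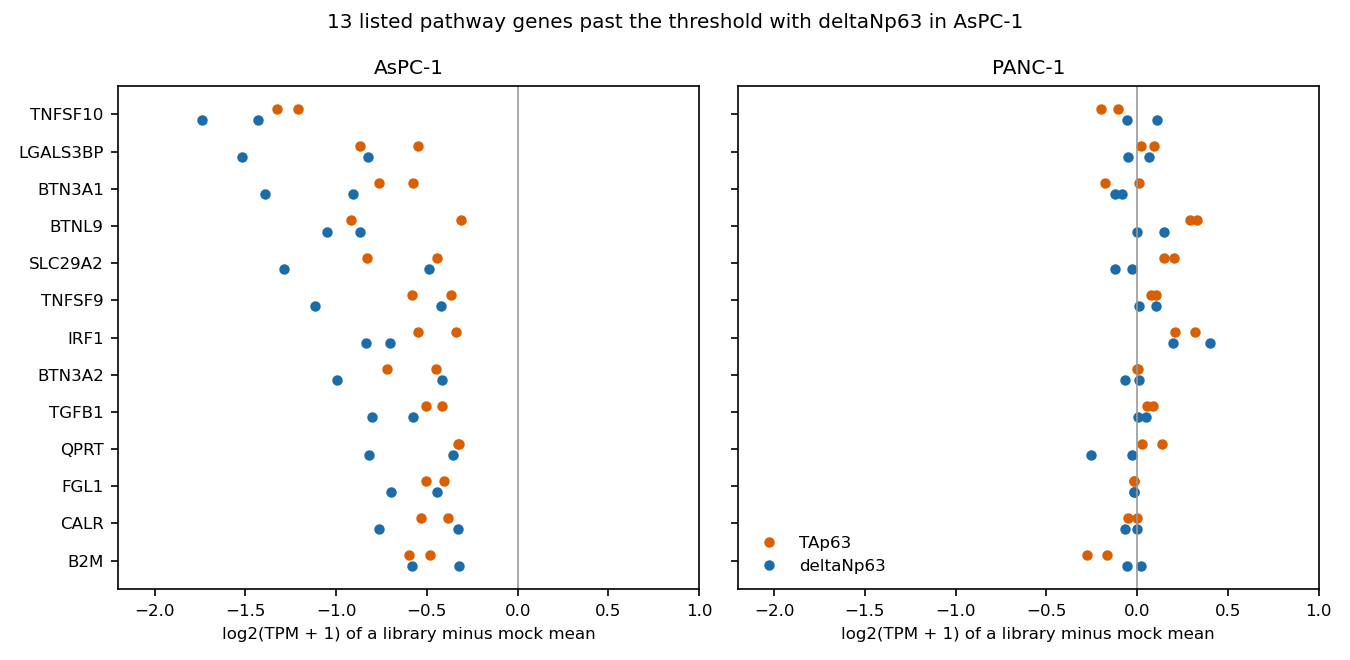
Log2(TPM + 1) of each library minus the mean of its line's mock libraries (x axis) for 13 of the 14 listed pathway genes that passed with deltaNp63 in AsPC-1 (y axis), in AsPC-1 (left) and PANC-1 (right); orange points are TAp63 and blue points deltaNp63 libraries. All 26 blue and 26 orange points of AsPC-1 lie below 0. The genes were chosen for being lower with deltaNp63 there, and both constructs share the mock libraries, so this follows largely from the choice. Points of PANC-1 lie on both sides of 0.

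In mock, 45 of the 98 listed genes were higher and 38 lower in PANC-1, shares of 45.9% and 38.8%, beside 44.6% and 27.9% of all tested genes. The counts include genes that reached 1 TPM in 1 line only and so had to differ. The largest differences were in genes nearly silent in PANC-1. TNFRSF6B, the decoy receptor of LIGHT, FasL and TL1A, was at 818 and 926 TPM in AsPC-1 mock and at 0 and 0.846 TPM in PANC-1 mock. LGALS2 and LGALS4, gut galectins, were at 402 and 337 TPM and at 524 and 511 TPM in AsPC-1 mock, against at most 0.277 and 1.52 TPM in PANC-1 mock. DPP4, a surface peptidase that binds adenosine deaminase, was at 122 and 118 TPM against 0.107 and 0.039 TPM. LGALS2 and DPP4 were tested only because they are high in AsPC-1, so their differences are descriptions. LGALS9 was also lower in PANC-1, but stayed above 12 TPM there in every library.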

How the data were processed

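The 12 libraries were made with a stranded mRNA kit, per the labels' protocols, and the authors deposited TPM values for 153329 Ensembl transcripts, each column summing to 1000000. The quantifier, build and annotation are not given in the sources used here. Rows were paired with genes through GENCODE v44 (hg38), which matched 139819 rows (91.2%) holding 89.6% to 90.5% of the TPM, and were summed to 39099 genes. TPM keeps no depth, so precision rests on the spread between replicates, pooled over the 6 groups of both lines. An interval or p-value thus does not measure the spread of its own groups alone. For LGALS9 the pairs differed in width, at 8.14 and 18.7 TPM in AsPC-1 deltaNp63 and 14.4 and 13.997 TPM in PANC-1 TAp63.

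Values were taken as log2(TPM + 1). The 14767 genes that reached 1 TPM in 2 or more libraries were fitted with limma 3.58.1 (R 4.3.3 and version 1.17.8 of data.table; lmFit, contrasts.fit, eBayes with trend) with 6 group means and 6 residual degrees of freedom. The 9 contrasts were tested two-sided with Benjamini-Hochberg adjustment over all genes of a contrast, at a threshold of 0.05. The fit was tested on simulated data. Intervals are 95% intervals of limma. All 10 genes are named; of the lists, the up to 4 genes that passed with the largest change per contrast; and the 5 genes most correlated with each gene that passed against mock. Of the lists, 1 gene is counted but is not reported here. The genes and lists were chosen with earlier results of these data known. Promoter sequences are RefSeq's, and exon sequences come from the GENCODE v44 transcripts. Other settings, listed in the closing section, were tried 1 at a time. Sums over protein-coding transcripts in the fits, and all settings for the lists, were added after the data were seen.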

Additional observations from a re-analysis of the deposited data

Results flagged for a closer look

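The effect of deltaNp63 on LGALS9 differed between the cell lines, by the test of that difference in the model of all 12 libraries. The log2 difference was 2.35 (PANC-1 minus AsPC-1, SE 0.423, limma adjusted p 0.0475): LGALS9 was lower than mock in 2 of 2 AsPC-1 libraries and between the mock libraries or above them in 2 of 2 PANC-1 libraries. TP63 itself reached 245 and 350.4 TPM in the AsPC-1 libraries and 815 and 1187 TPM in the PANC-1 libraries with deltaNp63, and its part in the difference was not tested. The mock mean of LGALS9 was 61.8 TPM in AsPC-1 but 13.6 TPM in PANC-1, and this starting level cannot be told apart from other differences between the lines.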

How the results depend on the processing

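The count of members that passed with deltaNp63 in AsPC-1 was 2, and 1 with quantile normalization, median centring, transcript rows or protein-coding transcripts only, 0 with only the 6 libraries of the line, and 1 to 4 with a library left out. With TAp63 in AsPC-1 it was 0, and 1 with a mean of at least 5 TPM and with the replicate block, and 0 to 1 with a library left out. Between the constructs in AsPC-1 it was 0 to 2 with a library left out, and 0 to 1 for the TAp63 difference between lines. For the deltaNp63 difference it was 1, but 0 with limma without trend, median centring, no filter, a pseudocount of 0.1, transcript rows or protein-coding transcripts, and 0 to 2 with a library left out; it was 0 without either library of AsPC-1 mock, PANC-1 mock, PANC-1 TAp63 or PANC-1 deltaNp63. The cause was not tested. With protein-coding transcripts only, the CD276 baseline difference reversed to -0.039, and mean levels over 12 libraries moved to 2.04 TPM for LGALS9 (23.2), 0.511 for CD274 (1.58), 24.2 for CD276 (48.7) and 15.8 for TNFRSF14 (23.8). Of 232 refits of a called gene, 199 stayed past the threshold and 1 changed sign; 77 of 1319 refits of uncalled genes changed sign, all from a log2 value of at most 0.273 in size.

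Same-numbered replicates did not deviate together in every pair of groups (r of -0.094 to 0.293), and the labels give no shared batch, so the numbers were not taken to pair the libraries. With the replicate block, the TAp63 call on LGALS9 in AsPC-1 passed (limma adjusted p 0.0195), the count of all genes with deltaNp63 in AsPC-1 was 1633 against 1055, and no other count of members changed. That count of all genes was also 708 with limma without trend, 199 with quantile normalization, 419 with median centring, 225 without a filter, 8 with only the 6 libraries of the line, 114 without AsPC-1 deltaNp63 replicate 1 and 4057 without AsPC-1 deltaNp63 replicate 2. Read depth is unknown, so the floor of detection for PDCD1LG2, IDO1 and CD274 cannot be given.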
